A study of Mus musculus with 8 samples.

Results

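Of the 13937 genes in the deposited count table, 8 are described here: the transcriptional coactivators of the Hippo pathway and a DNA-binding partner (rows YAP1, WWTR1 and TEAD1), a kinase that restrains them (LATS2), and well-known target genes (CTGF, CYR61, ANKRD1 and AMOTL2). They were taken by name, with earlier results of these data known. All 8 were in the table, and all 8 were among the 13509 genes with enough counts to be tested. They were measured by bulk RNA sequencing in primary astrocytes, the main glial cells that support neurons, cultured from the brains of C57BL/6 pups on postnatal day 1. Wild-type (WT) astrocytes and astrocytes with a knock-out (KO) of RGC-32, a protein encoded by Rgcc, were either left untreated (control) or stimulated with TGF-β (10 ng/ml, 24 h) after overnight serum starvation. Each of the 4 groups (WT control, WT TGF-β, KO control and KO TGF-β) had 2 biological replicates, 8 libraries in all, and all cells had grown in serum for weeks as an adherent layer from which loose cells had been shaken off. The sources used here do not say whether the 2 replicates of a group came from separate litters, so p-values measure the spread between these libraries.

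In the Hippo pathway, the kinases LATS1 and LATS2 phosphorylate the coactivators YAP (Yap1) and TAZ (Wwtr1), which keeps them in the cytoplasm. Unphosphorylated YAP and TAZ enter the nucleus and bind TEAD transcription factors, which recognize the DNA motif CATTCC. Their targets include the secreted matricellular proteins CTGF (CCN2) and CYR61 (CCN1), the nuclear ankyrin-repeat protein ANKRD1, and the YAP/TAZ inhibitors LATS2 and AMOTL2. YAP and TAZ are controlled largely at the protein level, which RNA counts do not measure. Ctgf is also a classical target gene of TGF-β, and YAP and TAZ respond to cell spreading and stiffness, conditions that differ between a culture dish and brain tissue.

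The TEAD motif stood close to a start site of all 6 of the 8 genes that had a promoter to search. RefSeq promoters (GRCm38.p6, from 250 bases before to 50 after a start site) were at hand for Cyr61, Ankrd1, Amotl2, Yap1, Wwtr1 and Lats2, and not for Ctgf and Tead1. CATTCC or its reverse complement GGAATG was present in at least 1 promoter of 6 of these 6 genes, against 14.7% of all 32851 promoters of the same length. That share counts promoters rather than genes, and Wwtr1 and Lats2 had 2 promoters each. The 250 bases before the start of the 3 target genes are shown because they let the motif be seen in its setting, 5′ to 3′ on the strand of the gene, with the TEAD motif in capitals.
Cyr61, chr3:145649986-145650235, minus strand: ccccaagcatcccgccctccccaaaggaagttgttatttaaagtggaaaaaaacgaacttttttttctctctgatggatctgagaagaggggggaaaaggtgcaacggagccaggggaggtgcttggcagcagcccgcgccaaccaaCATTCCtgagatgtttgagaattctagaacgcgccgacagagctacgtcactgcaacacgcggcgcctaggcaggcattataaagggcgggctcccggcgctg
Ankrd1, chr19:36119845-36120094, minus strand: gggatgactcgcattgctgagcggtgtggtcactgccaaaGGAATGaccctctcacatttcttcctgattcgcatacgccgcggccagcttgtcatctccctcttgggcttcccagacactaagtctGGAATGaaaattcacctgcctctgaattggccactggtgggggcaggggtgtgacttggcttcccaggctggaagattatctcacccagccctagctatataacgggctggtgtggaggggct
Amotl2, chr9:102717554-102717803, plus strand: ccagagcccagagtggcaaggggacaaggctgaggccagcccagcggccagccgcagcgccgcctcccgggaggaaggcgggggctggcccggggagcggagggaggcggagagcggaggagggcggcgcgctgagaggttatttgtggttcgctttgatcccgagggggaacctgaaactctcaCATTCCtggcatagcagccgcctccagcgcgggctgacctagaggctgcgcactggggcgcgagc
In Cyr61 the motif began 103 bases before the start site, in Amotl2 65 bases before it, and in Ankrd1 there were 2 copies in the reverse orientation, 210 and 123 bases before it.

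Both coactivator genes carried the motif as well, again in the reverse orientation, and are shown with 20 bases on each side.
Yap1, chr9:8004712-8004757, minus strand: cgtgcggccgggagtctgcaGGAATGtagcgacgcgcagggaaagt
Wwtr1, chr3:57576021-57576066, minus strand: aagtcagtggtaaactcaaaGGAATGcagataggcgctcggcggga
The motif of Yap1 began 141 bases before the start. That of Wwtr1 was a single site, 136 or 170 bases before the start in the 2 overlapping promoters listed. Of the 2 Lats2 promoters, 1 held a reverse copy 5 bases after its start and the other held none.

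Other motifs were searched in the same promoters on both strands. The SMAD element CAGAC was found in 4 of the 6 genes (Cyr61, Ankrd1, Yap1 and Lats2) and in 49.6% of all promoters. The AP-1 motif TGANTCA (7.81% of all promoters) and the CArG box of serum response factor (1.63%) were found in 0 of the 6. A match describes the letters of these windows and not binding, and distant enhancers were not searched.

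Libraries held 14920561 to 18956038 counts. Levels are given as CPM, the count of a gene relative to the TMM-scaled total of its library, with mean ± SD over 2 libraries. The threshold was 0.6 for the log2 fold change in either direction together with 0.05 for the adjusted p (edgeR quasi-likelihood test, Benjamini-Hochberg over 13509 genes). Rgcc, the targeted gene, had 80 and 94 counts in WT control, 215 and 362 in WT TGF-β, 61 and 28 in KO control, and 64 and 26 in KO TGF-β. Every KO library was below every WT library, and none was at 0. The log2 difference of Rgcc, KO minus WT, did not pass by edgeR. It was -0.97 without TGF-β (adjusted p = 0.78) and -2.54 with it (adjusted p = 0.133). Astrocyte markers were present in all libraries, with Gfap between 1196 and 2650 CPM.

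TGF-β raised the RNA of 4 of the 8 genes past the threshold in WT astrocytes, namely Ctgf, Cyr61, Ankrd1 and Wwtr1, and lowered none. Among all genes tested, 7.72% were past the threshold upward and 5.65% downward. Because the 8 genes were chosen with earlier results known, shares of all genes are set beside them as description only. In KO astrocytes, 3 of the 8 genes rose past it (Ctgf, Cyr61 and Wwtr1), against 6.61% of all genes, and none fell, against 4.93%. Whatever the size of the change, 5 of the 8 had an adjusted p under 0.05 in WT (32.9% of all genes) and 4 of the 8 in KO (28.4%), all of them higher after TGF-β. Taking the 8 genes together, the log2 fold changes had a median of 0.57 (WT) and 0.50 (KO), beside -0.005 and 0.003 over all genes tested. The counts past the threshold depended on values near the fold limit or near the limit of the adjusted p. With upper quartile normalization they were 2 in WT and 1 in KO, without WT control replicate 2 or WT TGF-β replicate 2 the WT count was 2, and without KO TGF-β replicate 2 the KO count was 1.

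**Figure D1:**
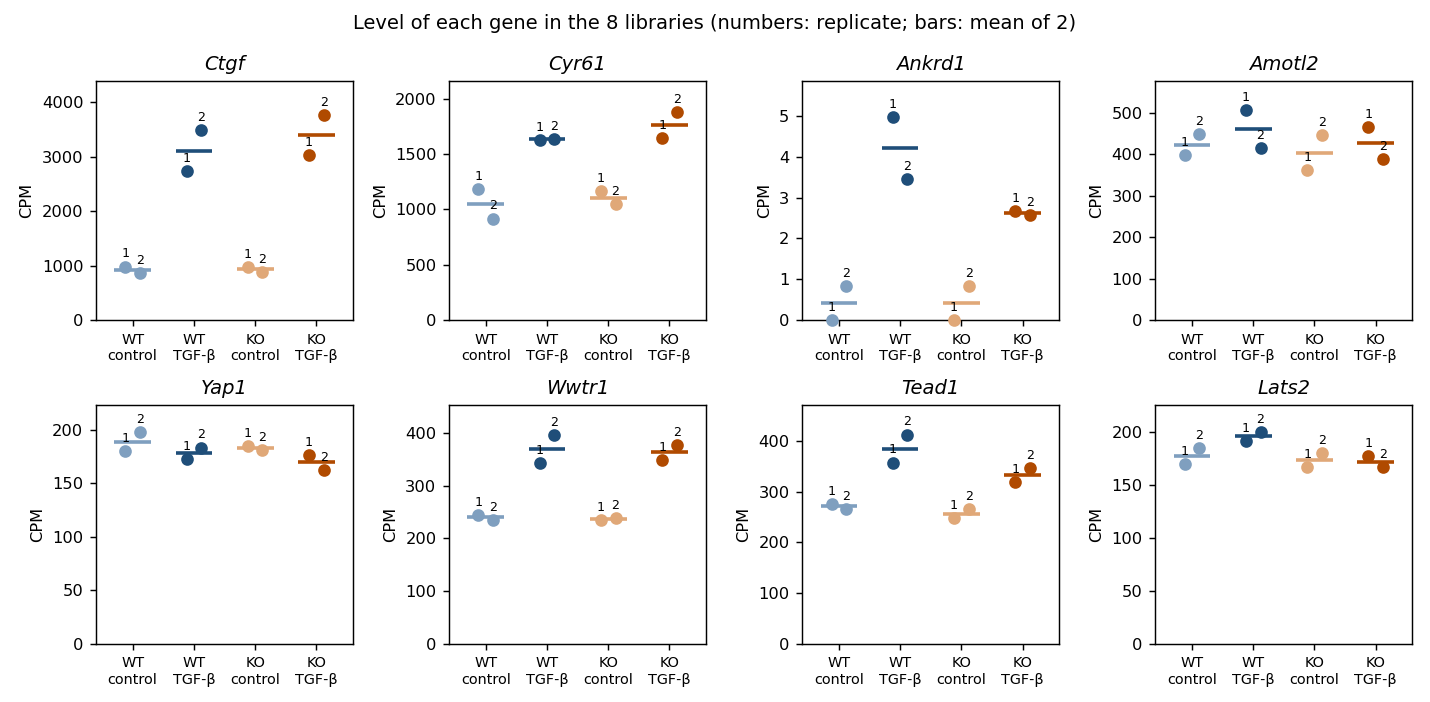
CPM (vertical axes, linear from 0) of the 8 genes in the 4 groups, with 1 point for each library, numbered by replicate, and a bar for the mean of 2. Ctgf, Cyr61, Wwtr1 and Tead1 are higher in every TGF-β library than in every control library, whereas the Yap1 and Amotl2 libraries lie close together or overlap.

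Ctgf, which encodes a secreted matricellular protein associated with scar formation, had 982 and 864 CPM in the WT control libraries and 2739 and 3479 in WT TGF-β. In KO, the control libraries had 981 and 886 CPM and the TGF-β libraries 3035 and 3771. The groups did not overlap in either genotype, and the lowest TGF-β library was far above the highest control. The increase was 3.37-fold in WT (923 ± 83.8 to 3109 ± 523 CPM, log2 fold change 1.75, SE 0.15, adjusted p = 0.000282) and 3.64-fold in KO (934 ± 67.3 to 3403 ± 521 CPM, 1.87, SE 0.15, adjusted p = 0.00028). Of the 4 genes past the threshold in WT, Ctgf alone stayed past it in all 20 alternatives, with log2 fold changes of 1.55 to 1.92 there, and of 1.68 to 2.01 in KO, where it also stayed past it.

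Cyr61, the other CCN member of the 8, encodes a secreted protein that binds integrins. It had 1181 and 917 CPM in WT control and 1630 and 1639 in WT TGF-β. The KO libraries had 1163 and 1050 CPM as controls and 1646 and 1880 with TGF-β. TGF-β libraries were again above all controls, by a smaller margin than for Ctgf. The increase was 1.56-fold in WT (1049 ± 187 to 1634 ± 6.76 CPM, log2 fold change 0.64, SE 0.13, adjusted p = 0.00786) and 1.59-fold in KO (1106 ± 79.9 to 1763 ± 166 CPM, 0.67, SE 0.13, adjusted p = 0.00766). These values lay close to the limit of 0.6, and single libraries decided the call. Without WT control replicate 2 the WT value was 0.45, without KO TGF-β replicate 2 the KO value was 0.55 (adjusted p = 0.0601), and without KO control replicate 2 its adjusted p was 0.0538.

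Ankrd1, a nuclear cofactor best known from stretched heart muscle, was scarce. It had 0 and 14 counts in WT control, 90 and 54 in WT TGF-β, 0 and 14 in KO control, and 40 and 39 in KO TGF-β. Every TGF-β library was above every control. The mean with TGF-β was 4.21 ± 1.08 CPM in WT, at least 21.8-fold the control library at 0 when that library is set at 3 counts, and 5.04-fold the other control. In KO it was 2.63 ± 0.0734 CPM, at least 13.7-fold and 3.17-fold. The fitted log2 fold change was 3.27 in WT (SE 0.85, adjusted p = 0.0222) and 2.60 in KO (SE 0.92, adjusted p = 0.0691), so only the WT value was past the threshold.

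Neither side of that threshold was firm for Ankrd1. In WT the call was lost with DESeq2 (adjusted p = 0.301) and without WT control replicate 1 (log2 fold change 2.33, adjusted p = 0.058), WT TGF-β replicate 1 (2.98, adjusted p = 0.0845) or WT TGF-β replicate 2 (3.49, adjusted p = 0.0556). In KO a call was gained in edgeR on the 4 KO libraries alone (2.59, adjusted p = 0.0484), without either WT control library (2.60 and 2.58, adjusted p = 0.0337 and 0.0344) and without KO control replicate 2 (8.40, adjusted p = 0.0434), where only the control at 0 remained and the fitted value depends on the prior count. The test of the difference between the responses gave -0.67 (KO minus WT, 95% interval -4.00 to 2.65), an interval that spans large differences in either direction.

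The coactivator genes behaved differently from each other. Wwtr1, which encodes TAZ, had 245 and 235 CPM in WT control against 343 and 397 in WT TGF-β, and 234 and 239 in KO control against 349 and 378 in KO TGF-β. Controls were tightly grouped and below all TGF-β libraries. It rose 1.54-fold in WT (240 ± 6.98 to 370 ± 38.2 CPM, log2 fold change 0.62, SE 0.08, adjusted p = 0.0013) and 1.53-fold in KO (237 ± 3.34 to 364 ± 20.4 CPM, 0.62, SE 0.08, adjusted p = 0.0017). As for Cyr61, the value lay near 0.6. It was 0.58 without WT control replicate 2 and 0.50 without WT TGF-β replicate 2 in WT, and in KO 0.598 without WT control replicate 2, 0.586 without KO control replicate 1 and 0.54 without KO TGF-β replicate 2, each below the limit with an adjusted p under 0.05.

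Yap1, which encodes YAP, had 180 and 198 CPM in WT control, 172 and 184 in WT TGF-β, 185 and 181 in KO control, and 177 and 162 in KO TGF-β. The WT groups overlapped, and the KO groups were separated by a narrow gap. The log2 fold change was -0.09 in WT (95% interval -0.25 to 0.08, adjusted p = 0.383) and -0.11 in KO (-0.27 to 0.06, adjusted p = 0.283). Both intervals exclude an increase of the size seen for Wwtr1.

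Per transcript length the order of the coactivators was the same in every library. On the deposited FPKM scale, the ratio of Wwtr1 to Yap1 was 1.20 and 1.11 in WT control, 1.86 and 1.83 in WT TGF-β, 1.11 and 1.24 in KO control, and 1.86 and 2.01 in KO TGF-β. In FPKM, Wwtr1 was 46.2 and 47.1 in WT control and 62.4 and 66.5 in WT TGF-β, beside 38.6 and 42.5 and then 33.6 and 36.4 for Yap1. The ratio was thus above 1 in all 8 libraries, and higher in each TGF-β library than in any control.

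**Figure D2:**
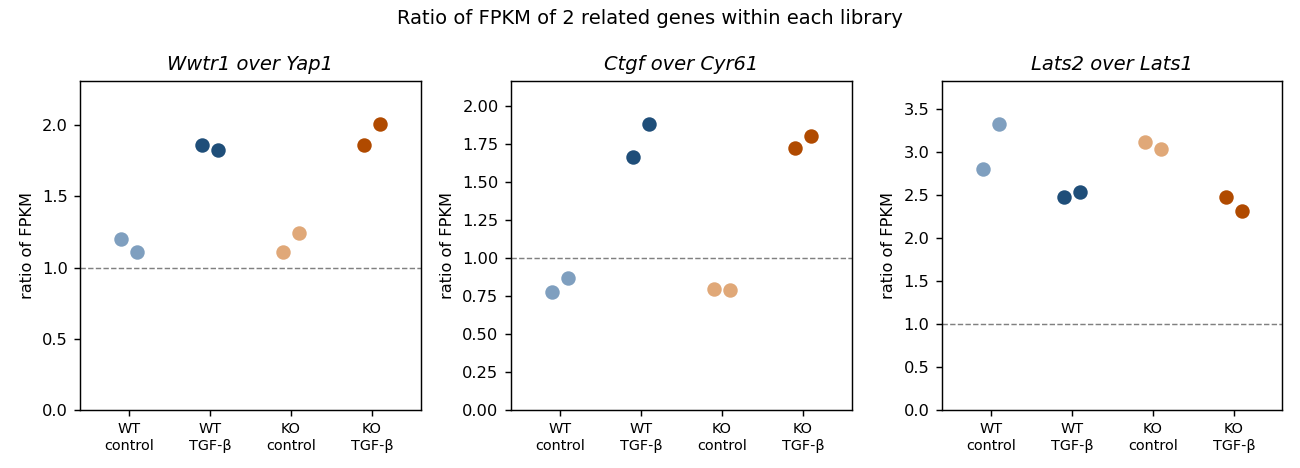
Ratio of deposited FPKM values of related genes within each library (vertical axes, linear from 0; dashed line at 1), with 1 point for each of the 8 libraries in the 4 groups. Wwtr1 over Yap1 goes from 1.11 to 1.24 in controls to 1.83 to 2.01 with TGF-β, Ctgf over Cyr61 crosses 1, and Lats2 over Lats1 is lower in TGF-β libraries.

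The same scale showed a change of order between the CCN genes. The FPKM ratio of Ctgf to Cyr61 was 0.776 and 0.869 in WT control and 0.796 and 0.790 in KO control, so Cyr61 was the more abundant. With TGF-β the ratio was 1.66 and 1.88 in WT and 1.72 and 1.80 in KO, so Ctgf was the more abundant in all 4 libraries. Both ranked among the most abundant RNAs, above 99.4% of all genes by mean FPKM in each group. Amotl2 stood above 96.1% to 96.6% of genes, Wwtr1 above 92.2% to 94.9%, Yap1 above 89.2% to 91.0%, Lats2 above 87.4% to 88.7%, Tead1 above 84.0% to 88.9%, and Ankrd1 above only 18.8% to 36.5%. The ranges of Wwtr1 and Yap1 did not meet, while those of Yap1, Lats2 and Tead1 were close or overlapping, and the order of Lats2 and Tead1 differed between groups.

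Tead1, a DNA-binding partner of YAP and TAZ, had 277 and 266 CPM in WT control, 358 and 413 in WT TGF-β, 248 and 266 in KO control, and 319 and 347 in KO TGF-β. TGF-β libraries were above controls in both genotypes. The increase was 1.42-fold in WT (log2 fold change 0.51, SE 0.08, adjusted p = 0.00375) and 1.29-fold in KO (0.37, SE 0.08, adjusted p = 0.015). Both passed on p and stayed under the fold limit, and without WT TGF-β replicate 1 the WT value was 0.61 and past it.

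Tead1 was the leading TEAD RNA. It made up 48.1% to 53.5% of the summed FPKM of the 4 TEAD genes in the 8 libraries. Its FPKM ratio to Tead3 was 1.73 to 1.98, to Tead2 2.19 to 3.01, and to Tead4 15.0 to 30.4. Tead3 rose with TGF-β by 0.46 in WT and 0.36 in KO on the log2 scale (adjusted p = 0.00198 and 0.00694), under the fold limit like Tead1. Tead2 (0.07 and 0.24, adjusted p = 0.665 and 0.132) and Tead4 (-0.04 and -0.24, adjusted p = 0.916 and 0.528) did not pass.

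The inhibitors of YAP and TAZ among the 8 genes did not pass the test in either genotype. Lats2 had 169 and 185 CPM in WT control, 192 and 200 in WT TGF-β, 167 and 180 in KO control, and 177 and 167 in KO TGF-β. The WT groups were separated and the KO groups overlapped. Its log2 fold change was 0.15 in WT (95% interval -0.01 to 0.30, adjusted p = 0.141) and -0.01 in KO (-0.17 to 0.15, adjusted p = 0.903).

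Amotl2, an angiomotin family protein that binds YAP and activates LATS kinases, had 397 and 449 CPM in WT control, 507 and 414 in WT TGF-β, 362 and 445 in KO control, and 466 and 388 in KO TGF-β. In each genotype the control and TGF-β libraries overlapped. The log2 fold change was 0.12 in WT (-0.21 to 0.45, adjusted p = 0.54) and 0.08 in KO (-0.25 to 0.41, adjusted p = 0.706). Without WT TGF-β replicate 1 the WT value was -0.02, so its sign rested on that library. In KO the sign turned without KO control replicate 1 (-0.08) or KO TGF-β replicate 1 (-0.06), and with upper quartile normalization or on FPKM the value was near 0 (-0.002 and -0.001).

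**Figure D3:**
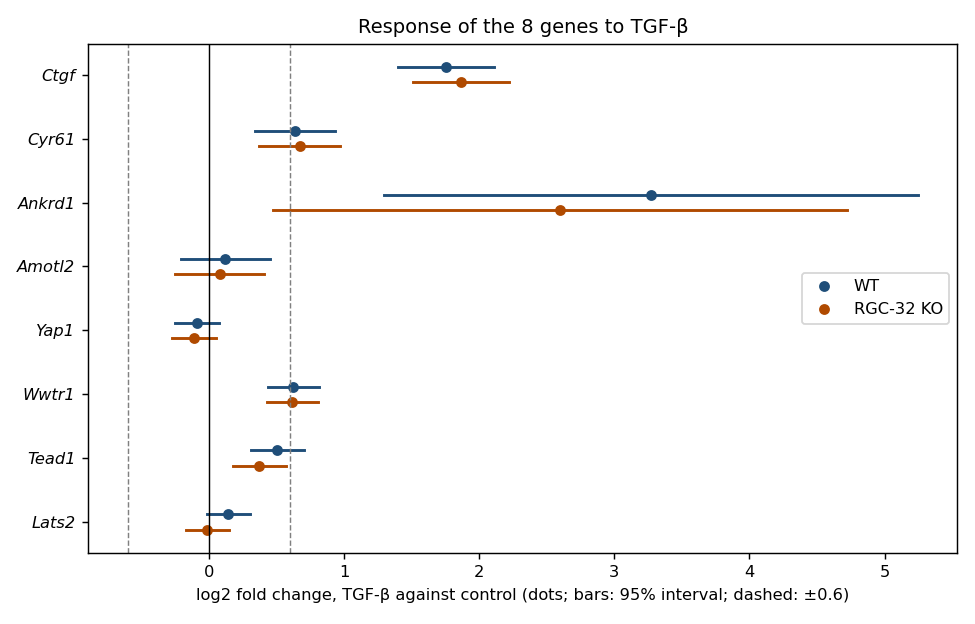
log2 fold change of TGF-β against control (horizontal axis) for the 8 genes, WT in blue and KO in orange, with 95% intervals as bars and dashed lines at the fold limit of 0.6 in each direction. The WT and KO intervals overlap for every gene, those of Ctgf lie wholly above 0.6, and those of Ankrd1 are the widest.

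No difference between genotypes passed the test for any of the 8 genes. Among all genes, 0.037% were past the threshold between KO and WT without TGF-β, 0.0444% with TGF-β, and 0% in the test of whether the response to TGF-β differed (interaction). The corresponding counts were 5, 6 and 0 genes by edgeR, with 924, 1576 and 381 genes at an unadjusted p under 0.05, and DESeq2 called 13, 34 and 0. Leaving out 1 library at a time gave 0 to 3 genes without TGF-β and 0 to 6 with it. A block that pairs control replicate 1 with TGF-β replicate 2 and the reverse, chosen after seeing the data, gave 10 genes without TGF-β and 36 with it, and raised the genes with an adjusted p under 0.05 from 5 to 16 and from 7 to 123. None of the 8 genes was among them. With so few calls over the whole table in each of these fits, 0 of 8 does not set these genes apart. Rgcc, the targeted gene, did not pass between genotypes by edgeR on all 8 libraries either, with or without TGF-β.

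Without TGF-β, the genotypes differed by between -0.08 (Tead1) and 0.08 (Cyr61) on the log2 scale, KO minus WT, and the libraries of the genotypes overlapped for all 8 genes. The 95% interval was -0.33 to 0.36 for Ctgf, -0.22 to 0.37 for Cyr61, -0.21 to 0.17 for Wwtr1 and -0.21 to 0.12 for Yap1. For Ankrd1, with a library at 0 in each genotype, it was -2.94 to 2.91.

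With TGF-β, the genotypes did not overlap for Cyr61, Ankrd1, Tead1 and Lats2. The share of all genes without such overlap was not counted, and with 2 libraries in a group separation alone is weak evidence of a difference. Tead1 was lower in KO by 13.6% (386 ± 39.1 CPM in WT against 333 ± 19.7, log2 difference -0.21, 95% interval -0.41 to -0.02, unadjusted p = 0.038 and adjusted p = 0.393 by edgeR). Lats2 was lower by 12.1% (196 ± 5.80 against 172 ± 7.56 CPM, -0.19, -0.34 to -0.03, unadjusted p = 0.0272 and adjusted p = 0.359). Neither passed after adjustment, and in the alternatives other than Bonferroni's correction the adjusted p ran from 0.223 to 0.869 for Tead1 and from 0.18 to 0.965 for Lats2. Without WT TGF-β replicate 2, the Tead1 difference was -0.09. Marker lists differed between the genotypes as well. With TGF-β the astrocyte list summed to 4384 to 4716 CPM in KO against 3585 to 3705 in WT, and a meningeal fibroblast list to 7703 to 7742 against 9953 to 11340. Their part in the differences of Tead1 and Lats2 was not tested. Lats2 and Rgcc lie on the same chromosome, 14, at 21.5 Mb from each other. Any bearing of this position on the Lats2 difference was not tested.

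Ankrd1 with TGF-β was lower in KO (4.98 and 3.45 CPM in WT against 2.68 and 2.58), a log2 difference of -0.69 (95% interval -2.16 to 0.79, adjusted p = 0.729). Cyr61 differed in the opposite direction by 0.11 (-0.19 to 0.41, adjusted p = 0.784), and Ctgf, whose libraries overlapped, by 0.13 (-0.22 to 0.48, adjusted p = 0.779).

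The responses to TGF-β differed between genotypes by 0.11 for Ctgf (KO response minus WT response, 95% interval -0.38 to 0.60), 0.03 for Cyr61 (-0.39 to 0.45), -0.01 for Wwtr1 (-0.27 to 0.26), -0.02 for Yap1 (-0.25 to 0.21), -0.14 for Tead1 (-0.41 to 0.14), -0.16 for Lats2 (-0.38 to 0.07) and -0.04 for Amotl2 (-0.51 to 0.42). All adjusted p-values were 1. Apart from Ctgf and Ankrd1, the intervals exclude a difference of the size of the fold limit, 0.6, in either direction.

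**Figure D4:**
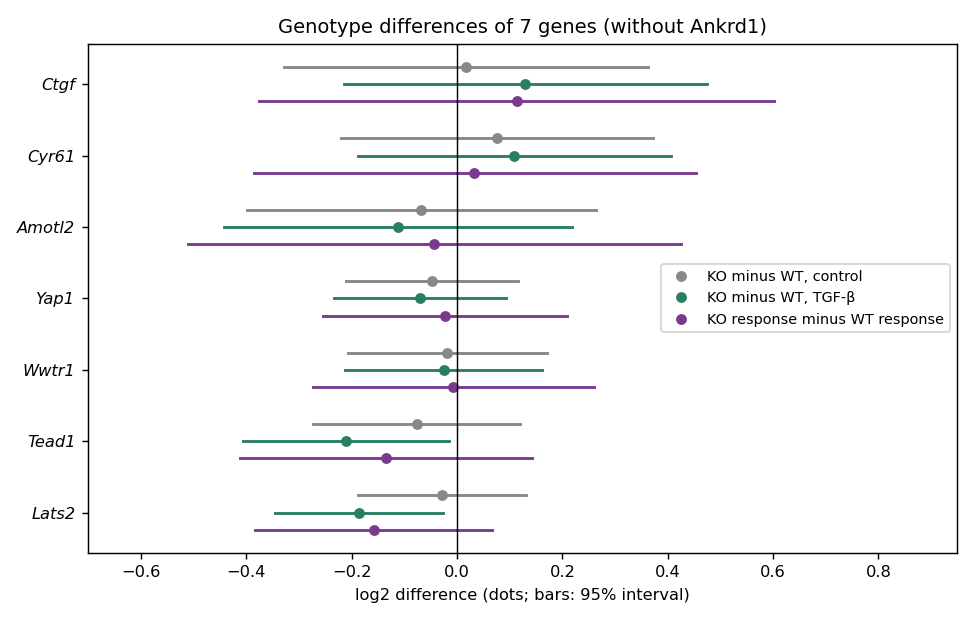
Differences between genotypes on the log2 scale (horizontal axis) for 7 of the 8 genes: KO minus WT in controls (grey), with TGF-β (green), and the response of KO minus that of WT (purple), with 95% intervals as bars. Ankrd1 is left out because its intervals span several units, and the intervals that leave out 0 are those of Tead1 and Lats2 with TGF-β, before adjustment.

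Around these 8 genes, 52 further genes of the pathway were followed in lists by role, of which 48 were in the table and 47 were tested. These lists too were chosen with earlier results of these data known, so shares of all genes beside them serve as description only. Vgll1, Vgll2 and the muscle ankyrin repeat genes Ankrd2 and Ankrd23 were not analysed here. With TGF-β 7 of the 47 rose past the threshold in WT, beside 7.72% of all genes, and 2 fell, beside 5.65%. In KO 6 rose (6.61% of all genes) and 1 fell (4.93%), so the falls were no more frequent than among all genes. Their log2 fold changes had a median of 0.20 (WT) and 0.13 (KO). In the comparisons of genotypes and in the interaction, 0 of the 47 passed.

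The CCN family moved in both directions in WT. Of its 6 genes 5 were tested (Wisp3 was not), and with Ctgf and Cyr61 counted 3 were past the threshold upward and 1 downward in WT, and 4 upward in KO, against the same shares of all genes. Wisp1 (CCN4), a secreted protein found downstream of Wnt signalling, had 34.1 and 78.1 CPM in WT control and 470 and 472 in WT TGF-β, and in KO 29.7 and 62.7 against 346 and 365. Its log2 fold change was 3.07 in WT (SE 0.41, adjusted p = 0.00141) and 2.94 in KO (SE 0.41, adjusted p = 0.00212), more than that of Ctgf. The TGF-β libraries were several times above the higher control, which in both genotypes was replicate 2.

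Wisp2 (CCN5), which lacks the C-terminal domain of the other CCN proteins, rose by 0.50 in WT (adjusted p = 0.0016, under the fold limit) and by 0.81 in KO (adjusted p = 0.000324). Nov (CCN3) had 18.4 and 31.4 CPM in WT control and 13.2 and 8.44 in WT TGF-β. It fell by 1.20 in WT (SE 0.32, adjusted p = 0.0255), a call lost without WT control replicate 2 (-0.78, adjusted p = 0.133) or WT TGF-β replicate 2 (-0.94, adjusted p = 0.131). In KO its value was -0.59 (adjusted p = 0.225).

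Among YAP, TAZ, the TEADs and the VGLL cofactors, which compete with YAP for TEADs, 8 of 10 genes were tested. In each genotype 1 of them (Wwtr1) was past the threshold upward, beside 7.72% of all genes in WT and 6.61% in KO. Whatever the fold, 4 had an adjusted p under 0.05 in each genotype, all higher: Wwtr1, Tead1, Tead3 and Vgll3. Among all genes 32.9% in WT and 28.4% in KO had such a p. Vgll3 rose by 0.55 in WT and 0.49 in KO (adjusted p = 0.00682 and 0.0132). Vgll4 had -0.08 and -0.11 (adjusted p = 0.384 and 0.231).

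Of the 7 genes of the kinase core, 0 were past the threshold in either genotype. Among all genes 7.72% were past it upward and 5.65% downward in WT, and 6.61% and 4.93% in KO. At those shares, 0 of 7 does not set the kinase core apart. Lats1 rose by 0.47 in WT and 0.39 in KO (adjusted p = 0.00381 and 0.00944). The Lats2 to Lats1 ratio in FPKM was accordingly 2.81 to 3.33 in controls and 2.31 to 2.54 with TGF-β. Mob1b, a LATS activator, rose by 0.32 and 0.35 (adjusted p = 0.00977 and 0.00906), and Mob1a had 0.07 in WT (adjusted p = 0.524) and rose by 0.28 in KO (adjusted p = 0.0407). Stk3, Stk4 (the MST kinases) and their scaffold Sav1 lay between -0.08 and 0.01, and did not pass. Of the angiomotins, Amotl1 rose by 0.36 in WT (adjusted p = 0.00614) and had 0.13 in KO (adjusted p = 0.181), while Amot had -0.13 and -0.22 (adjusted p = 0.359 and 0.156).

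Of the 14 upstream regulators, 2 rose and 1 fell past the threshold in each genotype, beside 7.72% up and 5.65% down over all genes in WT and 6.61% and 4.93% in KO. Wwc2, a KIBRA family scaffold that promotes LATS activity, rose by 0.92 in WT and 0.77 in KO (adjusted p = 0.000648 and 0.0016). Rassf1, a partner of the MST kinases, rose by 0.67 and 0.61 (adjusted p = 0.00206 and 0.00398). These Rassf1 values sit at the limit, at 0.55 in WT without WT control replicate 2, and in KO they were not past the threshold in 13 of 20 alternatives, with the lowest single-library value, 0.48, without KO TGF-β replicate 2. Fat4, a giant protocadherin, fell by 1.16 and 1.07 (adjusted p = 0.000328 and 0.00066), from 27.3 and 27.3 CPM to 12.2 and 12.3 in WT and from 19.1 and 22.7 to 10.5 and 9.45 in KO. Its ligand Dchs1 had 25.5 and 27.6 CPM in WT control and 29.4 and 29.9 in WT TGF-β, and in KO 22.8 and 24.4 against 20.6 and 19.2. Neither response passed (0.16 and -0.25, adjusted p = 0.158 and 0.0584), and with TGF-β its level in KO was 32.9% below that in WT (log2 difference -0.57, 95% interval -0.76 to -0.39, unadjusted p = 0.000112 and adjusted p = 0.0859 by edgeR, 0.0341 by DESeq2). On FPKM the WT libraries of Dchs1 overlapped (2.04 and 2.33 in control, 2.15 and 1.95 with TGF-β), and the WT response was -0.064.

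Of 17 other known YAP/TAZ-TEAD target genes, all tested, 4 were past the threshold upward in WT (7.72% of all genes) and 2 in KO (6.61%), with none downward (5.65% and 4.93%). The transcription factor gene Foxf2 rose by 1.28 and 1.30 (adjusted p = 0.00189 and 0.00236) and Igfbp3, which binds insulin-like growth factors, by 0.99 and 1.19 (adjusted p = 0.00101 and 0.000603). Dock5, an activator of Rac, rose by 0.77 in WT (adjusted p = 0.00148) and by 0.46 in KO (adjusted p = 0.0159, under the fold limit), where it reached 0.61 without KO control replicate 2. Nt5e, the ectoenzyme CD73, rose by 1.02 in WT (adjusted p = 0.0245) and had 0.76 in KO (adjusted p = 0.0813). Its WT call was lost without WT control replicate 2 (0.75, adjusted p = 0.134) or WT TGF-β replicate 2 (0.62, adjusted p = 0.148), and in KO it was gained without either WT TGF-β library (0.75 in both, adjusted p = 0.0477 and 0.0487). Whatever the fold, 10 of the 17 were higher and 1 lower with an adjusted p under 0.05 in WT, and 7 higher and 2 lower in KO, beside 32.9% and 28.4% of all genes in either direction. The log2 fold changes of the list had a median of 0.37 (WT) and 0.46 (KO).

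**Figure D5:**
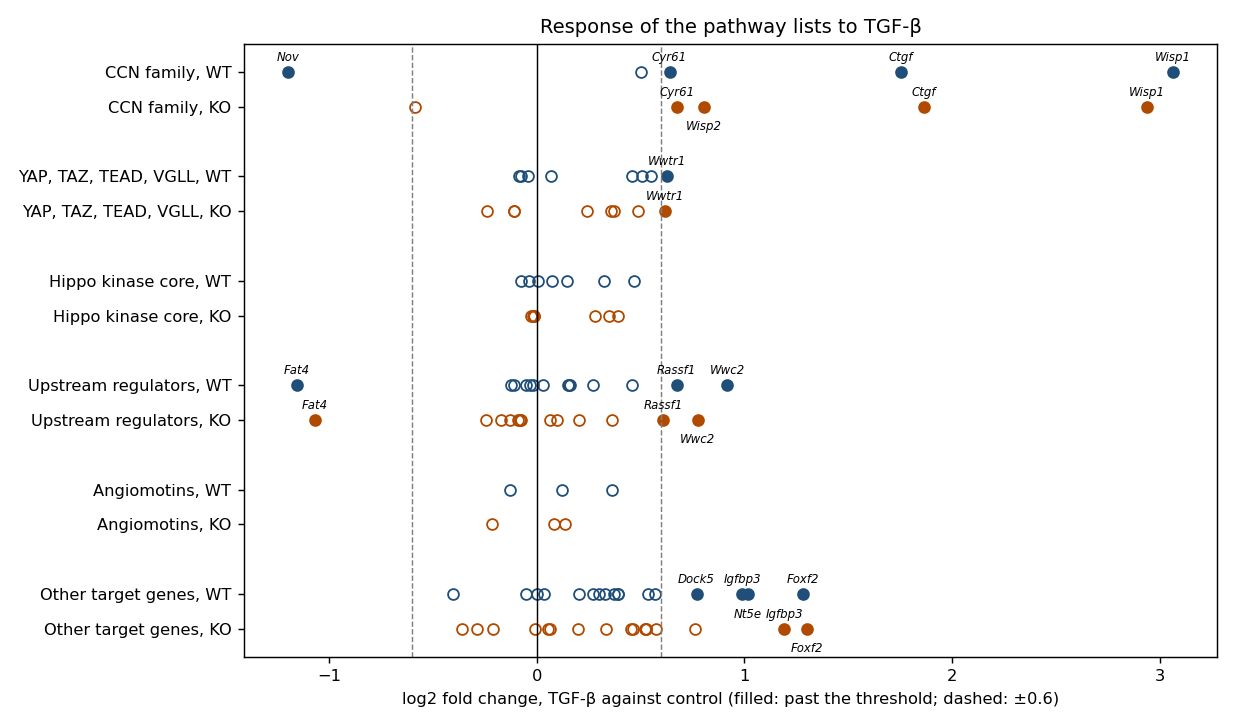
log2 fold change of TGF-β against control (horizontal axis) for every tested gene of the 6 pathway lists, 1 row for each list and genotype, WT in blue and KO in orange, with filled and named points past the threshold and dashed lines at 0.6 in each direction. Wisp1 and Ctgf lie farthest to the right at 3.07 and 1.75 in WT, Nov and Fat4 farthest to the left at -1.20 and -1.16, and the 7 genes of the kinase core stay within the limits.

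The pattern of the 8 genes across libraries was compared with that of every other tested gene by Pearson's r of log2 CPM. It is a description over 8 libraries that share 4 groups, so for genes that respond to TGF-β a shared response may set most of it. For Amotl2 the most alike genes moved little in WT (log2 fold change 0.036 for Ints3, 0.188 for Csgalnact1 and 0.041 for Rad50). Ctgf was most like Hbegf (0.998, log2 fold change 1.39 in WT), Ppp1r13l (0.998) and Ripply1 (0.998), Cyr61 like Derl1 (0.995), Tagln2 (0.994) and Ube2j2 (0.988), and Wwtr1 like Capn2 (0.999), Glis2 (0.999) and Actr1b (0.998). Ankrd1 was most like Tfpi2 (0.997), Jaml (0.991) and Col5a3 (0.990), and Tead1 like Pitpnm2 (0.996), Dzip3 (0.994) and Hsd17b7 (0.991). Those that did not pass were most like Ints3, Csgalnact1 and Rad50 (Amotl2, 0.986 to 0.967), Trnp1, Car10 and Inpp5e (Yap1, 0.970 to 0.964), and Map4, Pofut1 and Foxk1 (Lats2, 0.987 to 0.970). Spearman's rho takes few values over 8 libraries, and 2 to 33 genes tied at the highest rho for each of the 8. Csgalnact1 (Amotl2), Car10 (Yap1) and Pitpnm2 (Tead1) were among the genes at the highest rho, Hbegf had 25 genes above it for Ctgf, and Derl1 had 146 above it for Cyr61, so the order of likeness depended on the measure. Within the 8, r was 0.992 between Ctgf and Wwtr1, 0.965 between Ctgf and Cyr61, and -0.806 between Cyr61 and Yap1.

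Markers of other cells moved with TGF-β too. The summed CPM of a meningeal fibroblast list (9 of 10 genes in the table) was 5238 to 6577 in WT control and 9953 to 11340 in WT TGF-β, and 4391 to 4546 against 7703 to 7742 in KO. Most of this was Col1a1 and Col1a2. Col3a1 and Igf2 of the same list were also higher in each TGF-β library than in any control of its genotype, without passing the test. Dcn and Foxc1 were lower in each TGF-β library than in any control of its genotype. By edgeR, Dcn fell past the threshold in WT (log2 fold change -0.62, adjusted p = 0.00259) and stayed under the fold limit in KO (-0.36, adjusted p = 0.0272). Foxc1 stayed under the fold limit in both (-0.42 in WT, adjusted p = 0.0223, and -0.29 in KO, adjusted p = 0.0885). The meningeal transporter Slc6a13 was at 0 to 1.28 CPM. The pericyte and smooth muscle list (5 of 8) went from 387 to 406 up to 576 to 647 CPM in WT and from 356 to 362 up to 520 to 558 in KO. The astrocyte list (10 of 10) went from 4620 to 4847 down to 3585 to 3705 CPM in WT and from 5342 to 6005 down to 4384 to 4716 in KO, and the endothelial list (6 of 8) from 99.4 to 124 down to 71.6 to 73.9 and from 101 to 127 down to 67.3 to 80.3. Within the endothelial list Cdh5 fell past the threshold in both genotypes (log2 fold change -1.09 in WT and -0.85 in KO), whereas Flt1 rose past it (1.13 and 0.63). The part of these shifts in the results for Ctgf, Cyr61, Wwtr1, Tead1 and Ankrd1 was not tested. In bulk RNA, a change in the number of cells of a type and a change in RNA per cell cannot be told apart.

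Between genotypes, 9 of 10 astrocyte markers had a value above 0 (KO minus WT), with a median log2 difference of 0.215 without TGF-β and 0.211 with it. Of the meningeal fibroblast genes 8 were tested, with 0 above 0 and a median of -0.397 without TGF-β, and 1 above 0 and a median of -0.345 with it. The medians over all genes were -0.007 and 0, and no single gene of these lists passed the test. The summed levels of both lists did not overlap between genotypes within a treatment, and their part in the differences of Tead1, Lats2, Ankrd1 and Dchs1 was not tested.

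Of the remaining marker lists, the neuronal one was higher with TGF-β without overlap in both genotypes. Control and TGF-β libraries overlapped in WT for the microglia and macrophage list, and in KO for the oligodendrocyte lineage list. Microglia and macrophage genes (10 of 10) summed to 1091 to 1330 CPM in WT control and 1005 to 1315 in WT TGF-β, and to 1168 to 1289 against 1014 to 1140 in KO. Oligodendrocyte lineage genes (8 of 9) were at 353 to 355 and 287 to 324 CPM in WT, and at 367 to 377 and 314 to 367 in KO, with Sox10 at or under 1.01 CPM in all libraries. Neuronal genes (6 of 10) were at 306 to 316 and 378 to 397 CPM in WT and at 280 to 338 and 355 to 386 in KO.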

How the data were processed

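RNA of 8 libraries (2 for each of 4 groups) was sequenced by the authors without strand information, in cells from whose brains the meninges had been removed. Per the labels and the study's methods, reads were aligned with STAR in the VIPER pipeline, and the processing notes also name Cufflinks, DESeq and mm10. The counting program and annotation are not given in the sources used here. The authors deposited raw whole-number counts for 13937 gene symbols, and FPKM (fragments per transcript length and sequencing depth, by Cufflinks) for 18644 genes. The authors' deposited tables of DESeq2 comparisons (fold changes and p-values) were not used. Of the gene symbols, 21 were turned into dates and 1 was repeated, none of them described here. Reads of overlapping antisense genes cannot be told apart in unstranded data.

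Samples were grouped by their labels. In R 4.3.3, edgeR 4.0.16 (filterByExpr, TMM, 1 quasi-likelihood fit of 4 group means on all 8 libraries, two-sided, Benjamini-Hochberg over 13509 genes) gave all tests, with KO minus WT as the coded difference. SE is the log2 fold change over the root of F, and 95% intervals come from the t distribution with the fit's degrees of freedom. The fold limit of 0.6 follows the study's methods. log2 CPM used a prior count of 2, while the fitted fold changes used the default prior count of edgeR. FPKM served for ratios between genes and, with limma 3.58.1 and pseudocounts of 1 or 0.1, as an alternative, on which a fold change understates low genes. Other alternatives were DESeq2 1.42.0, limma-voom, RLE or upper quartile normalization, no filter, a minimum of 10 counts in each library, Bonferroni's correction, the 4 libraries of a comparison alone, the replicate number as a block and each library left out. The procedure was tested on simulated data. Replicates differed by more than counting noise (chi-square per degree of freedom 6.26 to 10.4), and floors cover counting error only.

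The genes named are the 8, Rgcc, the pathway genes past the threshold or in the CCN, TEAD, kinase and angiomotin lists, the 3 genes most like each of the 8, and cell type markers. Dchs1 was singled out after its values were seen. The 8 genes and all lists were chosen with earlier results of these data known. Older symbols were matched to current ones (Ctgf to Ccn2 and so on).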

Additional observations from a re-analysis of the deposited data

Results flagged for a closer look

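Dchs1, the protocadherin ligand of Fat4 upstream of the Hippo kinases, differed from control in opposite directions in the 2 genotypes on the CPM scale, but not on FPKM. In CPM, both TGF-β libraries were above both controls in WT and below both controls in KO. In FPKM the WT libraries overlapped (2.04 and 2.33 in control, 2.15 and 1.95 with TGF-β), the WT response of Dchs1 was -0.064 or -0.089 by pseudocount, and the mean was lower with TGF-β in both genotypes. The interaction, the KO response minus the WT response, was -0.405 on the log2 scale (95% interval -0.668 to -0.141, unadjusted p = 0.00768 and adjusted p = 1 by edgeR), so the difference between the responses did not pass. Over the alternatives the interaction ran from -0.465 to -0.14. With TGF-β the difference between KO and WT ran from -0.618 to -0.269, and, Bonferroni's correction aside (adjusted p = 1), its adjusted p from 0.0265 with a block chosen after seeing the data to 0.723 without KO TGF-β replicate 2.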

How the results depend on the processing

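Depth limited Ankrd1, whose controls held 0 to 14 counts, and not the other 7 genes, whose limit was the spread of 2 replicates. On FPKM the median of all genes lay at -0.098 to -0.129 on the log2 scale. With upper quartile normalization the share of higher calls was 44.8% instead of 57.8% (WT) and 45.5% instead of 57.3% (KO). In these settings the values of Cyr61 and Wwtr1, near the fold limit in the main fit, were below it. The cause of these and the other changes was not tested.

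The 8 genes past the threshold upward numbered 4 in WT, with 2 under upper quartile normalization, 1 with Bonferroni's correction and 2 on FPKM with either pseudocount, and 2 to 4 with 1 library left out. In KO they numbered 3, with 1 under upper quartile normalization, 1 with Bonferroni's correction, and 1 to 4 with 1 library left out. Among all genes, Bonferroni's correction left 143 up and 31 down in WT and 119 and 22 in KO. FPKM gave 518 up in WT and 459 in KO with a pseudocount of 1, and 1157 and 1140 down with 0.1. Leaving out 1 library gave 486 to 789 genes down in WT and 388 to 722 in KO. Of the other pathway genes, Bonferroni's correction left 0 up and 0 down in WT and 1 and 0 in KO. FPKM with a pseudocount of 1 left 1 down in WT and 0 in KO, without a filter 2 fell in KO, and with 1 library left out 1 to 2 fell in WT.

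Between genotypes without TGF-β, all genes past the threshold numbered 13 with DESeq2, 3 with Bonferroni's correction, 2 with the replicate block, 2 on 4 libraries and 0 to 3 with 1 library left out. With TGF-β they numbered 34 with DESeq2, 3 with limma-voom, 3 with Bonferroni's correction, 3 with the replicate block and 0 to 6 with 1 library left out. The interaction gave 0 in every alternative, with 76 to 857 genes at an unadjusted p under 0.05. The labels tie the replicate numbers to no shared litter, batch or day. Deviations of same-numbered control and TGF-β libraries correlated at -0.507 to -0.343, and those of same-numbered WT and KO libraries at 0.491 in controls and 0.253 with TGF-β, so the numbers gave no pairing across treatments but may pair the genotypes within one. With the block, 957 genes rose and 659 fell in WT, and the 8 genes kept 4 calls. A block with crossed numbers, chosen after seeing the data, gave 1167 up and 938 down in WT, 1040 and 812 in KO, and 10 and 36 between genotypes without and with TGF-β (16 and 123 at an adjusted p under 0.05 whatever the fold, against 5 and 7 without a block).

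Signs of small differences turned. With 1 library left out, the response of Amotl2 was -0.023 to 0.245 (WT) and -0.078 to 0.236 (KO), that of Lats2 -0.082 to 0.040 (KO) and that of Rgcc -0.676 to 0.834 (KO). The difference of KO from WT without TGF-β was -0.074 to 0.113 for Ctgf, -0.096 to 0.270 for Cyr61, -5.811 to 5.810 for Ankrd1 (fits with a lone library at 0, which depend on the prior count), -0.224 to 0.073 for Amotl2, -0.114 to 0.022 for Yap1, -0.049 to 0.012 for Wwtr1 and -0.088 to 0.035 for Lats2. With TGF-β it was -0.047 to 0.326 for Ctgf, 0.000 to 0.213 for Cyr61, -0.239 to 0.030 for Amotl2 and -0.137 to 0.096 for Wwtr1. The interaction was -0.070 to 0.302 for Ctgf, -0.161 to 0.203 for Cyr61, -6.501 to 5.123 for Ankrd1, -0.187 to 0.112 for Amotl2, -0.094 to 0.043 for Yap1 and -0.125 to 0.108 for Wwtr1. With upper quartile normalization the KO response of Amotl2 was -0.002. On FPKM, with pseudocounts of 1 and 0.1, it was -0.001 in both, the KO response of Rgcc was -0.049 and -0.115, the WT response of Dchs1 was -0.064 and -0.089, and for Wwtr1 the difference of KO from WT was 0.003 without and 0.007 with TGF-β and the interaction 0.005. Ankrd1 had too few counts for the minimum of 10 in each library.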

Other observations

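Between the 2 replicates of a control group, Ankrd1 and Wisp1 stood out in both genotypes. On the log2 CPM scale (prior count 2), replicate 2 exceeded replicate 1 by 2.95 in WT control and 2.94 in KO control for Ankrd1, and by 1.19 and 1.08 for Wisp1, higher than at least 99.4% of all tested genes in each group. With TGF-β, Ankrd1 differed by -0.51 (WT) and -0.05 (KO), and Wisp1 by 0.01 and 0.07. Amotl2 was higher in replicate 2 of the controls (0.18 in WT and 0.30 in KO) and lower in replicate 2 of the TGF-β groups (-0.29 and -0.26). Ctgf had the opposite pattern, with -0.18 and -0.15 in the controls and 0.34 and 0.31 with TGF-β. Nov was 0.77 higher in replicate 2 of WT control and -0.09 in KO control, and lower with TGF-β (-0.63 and -0.78). The replicate numbers come from the labels, which tie them to no litter, batch or day.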
